A study of Rattus norvegicus with 10 samples.

Results

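The PARP family was examined in adult rat β-cells after silencing of the transcriptional repressor Scrt1. The 10 genes described here are Parp1, Parp2, Parp3, Parp6, Parp8, Parp9, Parp10, Parp12, Parp14 and Parp16, out of 23918 genes in the deposited table. They were selected by symbol, with the earlier result of Parp16 in the same contrast, siScrt1 against siCtrl, known. Their changes between the groups are therefore a description and carry no test. The cells came from adult Sprague-Dawley rats. Islet cells were FACS-sorted on β-cell autofluorescence, plated on plastic coated with extracellular matrix, and transfected with Lipofectamine RNAiMAX. The siScrt1 group (replicates A to E) received a pool of siRNAs against rat Scrt1 and the siCtrl group (replicates 1 to 5) a negative control siRNA, with 5 libraries each. RNA was taken 48 h after transfection. Whether libraries of a group came from separate animals is not given in the labels, so p-values measure the spread between these libraries, which may be technical.

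Poly(ADP-ribose) polymerases transfer ADP-ribose from NAD to proteins and nucleic acids. Parp1, Parp2 and Parp3 are activated by DNA breaks, and the first of these builds long chains that recruit repair factors. Most other members attach single ADP-ribose units, several are induced by interferon, and Parp9 works as a partner of the ubiquitin ligase Dtx3l. Parp16 is anchored in the endoplasmic reticulum membrane, where it modifies the stress sensors encoded by Ern1 and Eif2ak3. In β-cells, strong activation of Parp1 is known for depleting NAD after streptozotocin injury.

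The sequence in front of Parp16 is shown first because Scratch proteins, the family of Scrt1, bind the core CAACAGGTG. Promoter windows of 300 bases (250 before to 50 after the annotated start, RefSeq, build GRCr8) were found for 9 of the 10 genes, all except Parp10, and were searched on both strands. Parp16 was the only one of the 9 with the whole core. The window lies at chr8:74626535-74626834 on the plus strand, and capitals mark the core, which begins 242 bases before the start.

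Parp16: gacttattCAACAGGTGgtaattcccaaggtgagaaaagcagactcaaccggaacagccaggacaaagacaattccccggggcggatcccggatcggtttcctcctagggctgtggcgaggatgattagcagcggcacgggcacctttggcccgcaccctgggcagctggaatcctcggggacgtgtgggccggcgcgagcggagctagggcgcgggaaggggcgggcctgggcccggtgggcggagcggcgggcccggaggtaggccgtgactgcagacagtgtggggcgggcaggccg

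The core occurred in 68 of 33469 promoter windows of the reference (0.203%). The shorter CAGGTG, which is part of it, occurred in 18.8% of windows and in 2 of the 9 genes, Parp16 and, at a pair of sites, Parp6. The RefSeq record of Parp16 begins ahead of this window, so the core also lies inside the annotated gene of a longer transcript. A match of letters is a description and does not show that a protein bound there.

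Library depth ranged from 11901342 to 17444034 reads. Scrt1 fell from 200.1 ± 38.7 scaled estimated counts in siCtrl to 52.4 ± 25.1 in siScrt1 (SD, n = 5 each). On the log2 scale this was -2.06 with an SE of 0.308 (adjusted p = 0.00618 in limma). The scaled estimated count is the authors' kallisto count after scaling between libraries, summed over the transcripts of a gene. Summed β-cell markers ran from 1.38e+06 to 2.53e+06 scaled counts in siCtrl and from 1.59e+06 to 2.21e+06 in siScrt1, and none of the 11 markers in the table averaged under 1 read. Of 11 acinar markers 7, among them Prss1, Cpa1 and Amy2a3, averaged under 1 read. Transcripts of markers of other cell types were not absent, although the paper reports by staining that sorted β-cell fractions were nearly all insulin-positive. Summed alpha-cell markers ran from 2840 to 8595 in siCtrl and from 3088 to 6962 in siScrt1. Duct markers ran from 2500 to 3681 and from 3022 to 3633. Delta- and PP-cell markers ran from 249 to 1167 and from 327 to 1310. No alpha-, duct, delta- or PP-cell marker averaged under 1 read. The median marker, however, held 8.79 scaled counts in the alpha-cell list and 14.7 in the duct list, so few genes carried these sums. Whether these transcripts came from other cells or from β-cells was not tested. Summed mesenchymal markers stood apart in siCtrl replicate 4 (231) and siScrt1 replicate D (421), against 53.2 to 127 in the other 8 libraries. Without these 2 libraries the log2 fold change of Scrt1 was -1.82 and the adjusted p 0.0598. In bulk samples, fewer cells that express a gene and less RNA of it per cell cannot be told apart.

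Among the 10 genes, Parp16 had the lowest level and the largest difference between the groups. In siCtrl replicates 1 to 5 it had 12.1, 11.3, 8.29, 5.59 and 8.51 scaled counts. The siScrt1 libraries, replicates A to E, held 30.3, 32.0, 28.9, 45.8 and 35.1. Every siScrt1 library lay above every siCtrl library, and the siScrt1 library was the higher one in all 5 pairs with the same number in the table. The means were 9.16 ± 2.61 and 34.4 ± 6.78 (SD, n = 5 each), a ratio of 3.76, and the log2 fold change was 1.88 with an SE of 0.259. These values rest on few reads, 6 to 11 per library in siCtrl and 24 to 51 in siScrt1. The Poisson interval (95%, counting error only) reached 19.7 reads at most in siCtrl and began at 15.4 reads in siScrt1 replicate A, the lowest of that group, so the intervals of these nearest libraries overlapped.

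Parp16 was tested only because of its siScrt1 libraries. The filter asked for 0.700 CPM (reads relative to the library total) in 5 libraries, and 2 siCtrl libraries but all 5 siScrt1 libraries reached it. Entry in this way favours genes that are higher in siScrt1. With no filter the log2 fold change was the same, 1.88. The value depended on the scale. With log2(TPM + 1) the log2 fold change was 0.96, since a low gene is compressed by the added 1, and with a stricter filter of 30 reads the gene was not tested. Leaving out 1 library at a time kept the log2 fold change between 1.72 and 1.99. Without both number 4 libraries it was 1.62. Those libraries, siCtrl replicate 4 and siScrt1 replicate D, stood apart in mesenchymal markers. They held the lowest siCtrl and the highest siScrt1 value of Parp16. Their log2 difference was 2.93, against 1.29 to 1.98 in the other numbered pairs. A part of mesenchymal cells in this was not tested. All Parp16 reads were assigned to 1 of the 2 transcripts in the table, ENSRNOT00000079548.1, and ENSRNOT00000045106.3 was listed at 0 in all 10 libraries.

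**Figure D1:**
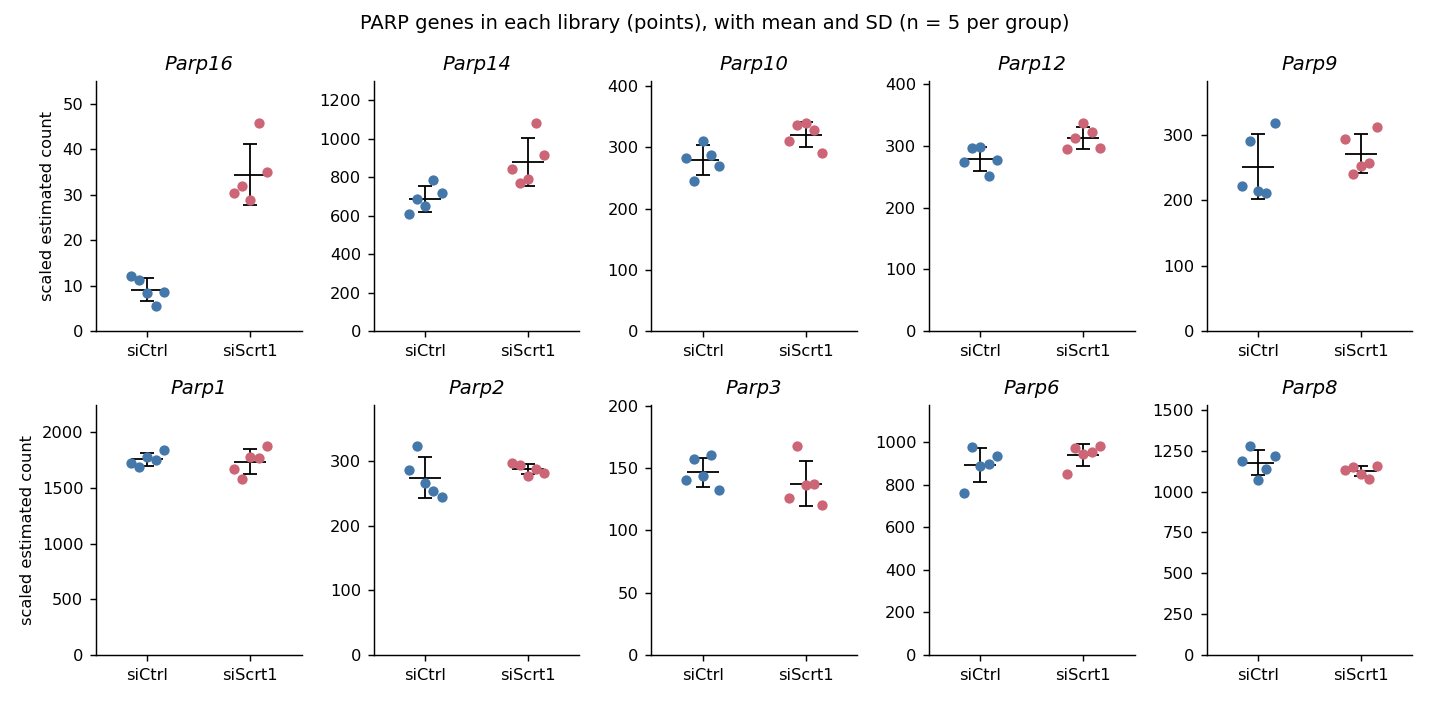
Scaled estimated counts of the 10 PARP genes in each siCtrl (blue) and siScrt1 (red) library, with mean and SD as black bars and the vertical axis starting at 0 in each panel. Parp16 runs from 5.59 to 12.1 in siCtrl and from 28.9 to 45.8 in siScrt1, whereas the groups of the other 9 genes overlap.

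Among the 10 genes, Parp16 was the one past an adjusted p of 0.05 and the one whose groups did not overlap. Over all 12941 genes tested, 1.05% were past that threshold (0.371% raised and 0.680% lowered), and 3.51% had groups that did not overlap (1.48% with siScrt1 above). Nothing is read from these shares, because the contrast helped to choose the genes. The median log2 fold change of the 10 genes was 0.10, and 7 were positive. The median over all tested genes was 0.0035. Of the other 9 genes, none differed by more than 0.35 on the log2 scale.

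Parp14, a mono-ADP-ribosyltransferase of macrophages and B-cells known as a co-activator in interleukin-4 signalling, had the second largest difference. Its scaled counts were 606, 685, 650.1, 784 and 716 in siCtrl replicates 1 to 5 and 842, 769, 789.7, 1082 and 913 in siScrt1 replicates A to E. The groups met at siCtrl replicate 4, which was above the lowest siScrt1 library, and the other 4 siScrt1 libraries were above all siCtrl libraries. The means were 688 ± 67.3 and 879 ± 126 (SD, n = 5 each). Its log2 fold change was 0.35 (SE 0.0989), and siScrt1 was higher in 5 of 5 numbered pairs. With the pair number as a block the SE was 0.0657 and 2 of the 10 genes, Parp14 and Parp16, were past the threshold, against 2.00% of all tested genes under that fit. The highest Parp14 library of each group was the one with the highest mesenchymal marker sum, siCtrl replicate 4 and siScrt1 replicate D. Without both, the log2 fold change of Parp14 was 0.32.

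Parp10 and Parp12, also interferon-inducible mono-ADP-ribosyltransferases, differed less. Parp10 had 282, 245.5, 311, 288 and 269 scaled counts in siCtrl and 310, 336, 340.3, 328 and 290.1 in siScrt1, with a log2 fold change of 0.20 (SE 0.0825). Parp12 had 273, 297, 297, 250.4 and 277 in siCtrl and 294, 313, 337, 322 and 296 in siScrt1, with a log2 fold change of 0.16 (SE 0.0768). For both genes 3 of 5 siScrt1 libraries lay above all siCtrl libraries and the numbered pairs all pointed upwards. Parp10 lies on the same chromosome as Scrt1, with 17 protein-coding genes between them in RefSeq.

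Parp9, which has lost catalytic activity of its own and acts with Dtx3l, varied most within siCtrl among the members other than Parp16. Its siCtrl values were 222, 289.7, 214, 211 and 318, a coefficient of variation of 19.8%. Its siScrt1 values were 294, 241, 253, 257 and 312. The log2 fold change was 0.13 with an SE of 0.129, and the ranges overlapped throughout.

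The DNA-damage members had groups that overlapped. Parp1, the main PARP of the nucleus, ran from 1688 to 1843 in siCtrl (median 1755) and from 1580 to 1874 in siScrt1 (median 1772), with a log2 fold change of -0.02 (SE 0.0592) that turned to 0.014 without siScrt1 replicate B. Parp2, which shares the repair role, gave 0.07 (SE 0.0851), and its siScrt1 libraries, 277 to 297, all lay inside the siCtrl range of 244 to 323. Parp3, which acts at double-strand breaks, gave -0.10 (SE 0.109), with siScrt1 the lower of 4 of the 5 numbered pairs.

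Parp6 and Parp8, a closely related pair of mono-ADP-ribosyltransferases with roles in neurons and at the nuclear envelope, had log2 fold changes of 0.08 (SE 0.0734) and -0.06 (SE 0.0598). Parp8 was spread over 2 transcripts. The share of ENSRNOT00000060595.4 in its scaled counts was 85.4% ± 3.49 (SD) for siCtrl and 83.9% ± 1.61 for siScrt1, so the shares overlapped. The 8 members other than Parp8 and Parp16 had 1 transcript each in the table.

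**Figure D2:**
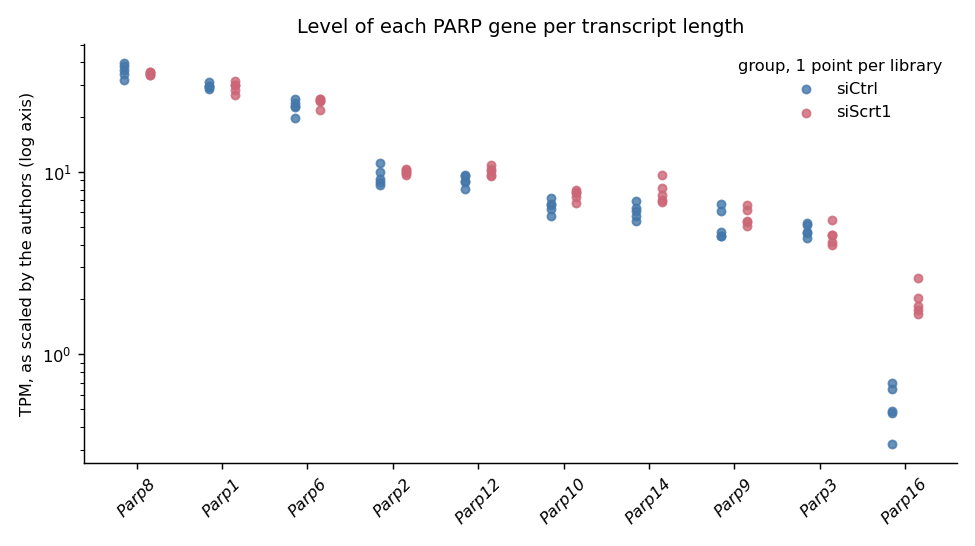
TPM per library (log axis), a level per transcript length as scaled by the authors, for the 10 PARP genes ordered by their siCtrl mean, with siCtrl in blue and siScrt1 in red. Parp8 is highest at a siCtrl mean of 36.0 TPM and Parp16 lowest at 0.527 TPM, and Parp16 remains lowest in siScrt1.

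Levels between genes were compared per transcript length, as TPM scaled by the authors. In siCtrl, Parp8 led with 36.0 ± 3.06 TPM, followed by Parp1 with 29.5 ± 0.970 and Parp6 with 22.9 ± 2.00 (SD, n = 5). The libraries of these 3 genes did not overlap with the next in order. Parp2 (9.54 ± 1.09) and Parp12 (8.998 ± 0.610) overlapped each other. They were followed by Parp10 (6.48 ± 0.554), Parp14 (6.11 ± 0.595), Parp9 (5.27 ± 1.04) and Parp3 (4.80 ± 0.382), in which each overlapped its neighbour.

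Parp16 came last with 0.527 ± 0.151 TPM, 68.4 times below Parp8 and 9.11 times below Parp3. In siScrt1 it had 1.98 ± 0.388 TPM and was still last, 2.28 times below Parp3. Its share of the summed TPM of the 10 genes was 0.404% in siCtrl and 1.46% in siScrt1. The order of the others was the same in siScrt1 apart from Parp12 and Parp2, and Parp14 and Parp10, which changed places.

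The core in front of Parp16 was also looked for in the other tested genes, a count made after their values were seen. Of 9359 tested genes with a promoter window, 17 held it. Parp16, Nfatc2, Gyg1 and Fyco1 were raised and none was lowered. That is 23.5% of the 17, or 3 of the other 16 without Parp16, against 0.417% raised among all genes with a window. Parp16, from which the count started, is among the 17 and so enters the median and the positive count below. No test was made, and nothing is read from these shares. The median log2 fold change of the 17 was 0.20 and 13 were positive. Among all genes with a window the median was 0.0026 and 50.7% were positive. These 17 genes were few, and the count dropped to 2 without siCtrl replicate 4, siScrt1 replicate D or siScrt1 replicate E and to 1, Parp16, without both number 4 libraries, where the median was 0.22.

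For the 3 genes raised beside Parp16, the 41 bases around the core are given with the core in capitals, written along the strand of the gene. They lie at chr3:177733048-177733088 (minus strand), chr2:104582953-104582993 (minus strand) and chr8:132356484-132356524 (minus strand) of GRCr8. The core starts 98, 200 and 57 bases before the start of the gene, respectively, and is on the opposite strand in Fyco1.
Nfatc2: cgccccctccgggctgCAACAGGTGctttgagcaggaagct
Gyg1: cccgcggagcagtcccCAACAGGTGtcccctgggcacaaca
Fyco1: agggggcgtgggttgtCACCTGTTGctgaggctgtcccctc

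Nfatc2, a calcineurin-dependent transcription factor, rose from 63.1 ± 20.1 to 129 ± 11.6 scaled counts (log2 fold change 1.09, SE 0.213; limma, adjusted p = 0.0293, n = 5 each). Gyg1, glycogenin, the primer of glycogen synthesis, rose from 376 ± 34.4 to 515 ± 37.5 (0.45, SE 0.0815; limma, adjusted p = 0.0194, n = 5 each). Fyco1, an adaptor of autophagosome transport, rose from 816 ± 29.7 to 1103 ± 87.9 (0.43, SE 0.0655; limma, adjusted p = 0.00651, n = 5 each). The groups of each of these genes did not overlap, as in 1.48% of all tested genes with siScrt1 above. These genes were named for passing the threshold, so this adds little to their calls. The call of Gyg1 was lost with library-total scaling and without siCtrl replicate 4, siScrt1 replicate D or siScrt1 replicate E, and that of Nfatc2 when any of siCtrl replicates 3 and 4 or of siScrt1 replicates B, C, D and E was left out. Without both number 4 libraries none of these 3 genes kept its call. In the other direction Twsg1, a modulator of BMP signalling, also had groups that did not overlap, at 1321 ± 63.9 and 1136 ± 43.2 scaled counts (log2 fold change -0.22, SE 0.0562; limma, adjusted p = 0.110, n = 5 each). Of the 1710 tested genes that held the CAGGTG hexamer, 17 were raised and 12 were lowered, with a median log2 fold change of 0.0063. The 17 raised genes include Parp16, Nfatc2, Gyg1 and Fyco1, since the hexamer is part of the core. Among all 9359 tested genes with a window, 39 (0.417%) were raised and 64 were lowered. No test was made, and nothing is read from these counts.

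**Figure D3:**
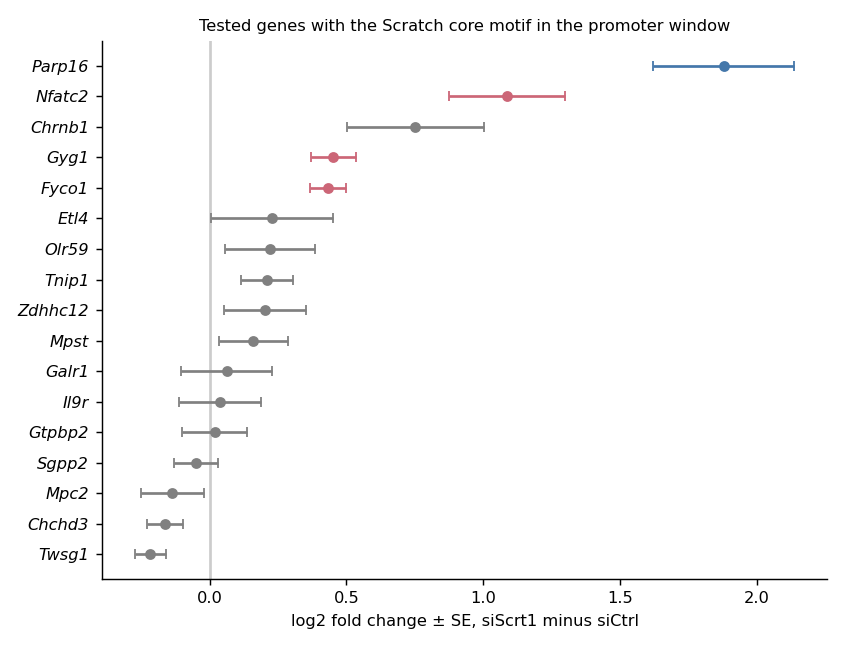
Log2 fold change with its SE for the 17 tested genes whose promoter window holds the Scratch core motif, with Parp16 in blue (a description), other genes past the adjusted threshold in red and the rest in grey. Of the 17 genes, 13 lie to the right of 0 and 4 to the left, and Parp16 at 1.88 is farthest to the right.

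Parp9, Dtx3l and Parp14 are neighbours on chromosome 11, with no further protein-coding gene between Parp9 and Dtx3l or between Dtx3l and Parp14. Dtx3l had 258, 303, 199, 181 and 363 scaled counts in siCtrl and 252, 233, 320.0, 321 and 386 in siScrt1, so replicates 5 and E were the highest of their groups for Dtx3l and, for Parp9, also the highest. As deviations of log2 values from the group means, Pearson's r was 0.80 (exact permutation within groups, two-sided, p = 0.0247, 0.0740 adjusted over 3 relations) and Spearman's rho 0.90 (exact permutation p = 0.00222, adjusted 0.00667; n = 10 libraries). The permutation moved the libraries of each group independently and ignored the pair numbers. Deviations of same-numbered libraries were correlated, and replicates 5 and E share a number, so these p-values may be too small. Without the 2 libraries farthest from the median of Parp9, siCtrl replicates 2 and 5, r was 0.63. The relation of Parp14 was 0.17 with Parp9 and 0.16 with Dtx3l (exact permutation, p = 0.624 and 0.646, both 0.646 adjusted). Over the differences within the 5 numbered pairs, r was 0.61 for Parp9 and Dtx3l, 0.83 for Parp9 and Parp14 and 0.45 for Dtx3l and Parp14, so the order of the relations was another one. These rest on 5 values each and carry no test. The RefSeq records of Parp9 and Dtx3l overlap, and whether the counting used strand is not given in the sources used here, so reads from the overlap cannot be told apart.

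**Figure D4:**
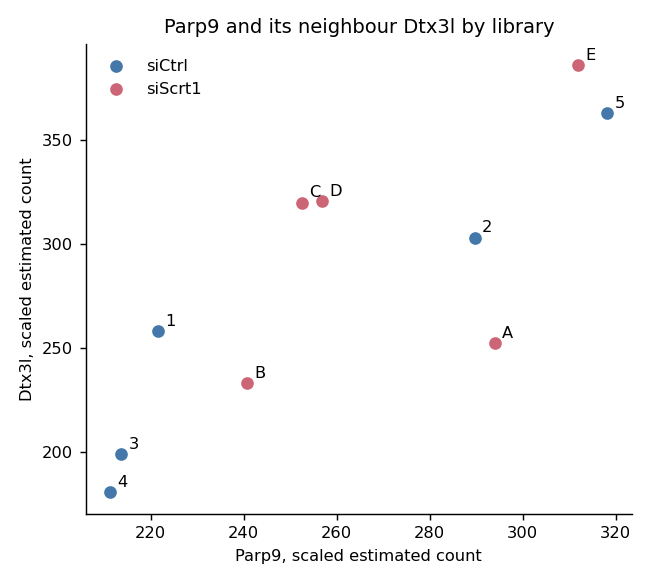
Scaled estimated counts of Parp9 (horizontal axis) and its neighbour Dtx3l (vertical axis), 1 point per library labelled with its replicate, siCtrl in blue and siScrt1 in red. Libraries 5 and E are high for both genes, and siCtrl libraries 3 and 4 are low for both.

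The interferon-inducible members were compared with an index of 37 interferon-response genes that held no PARP gene. As a mean log2 value the index was 6.84 ± 0.0680 in siCtrl and 6.96 ± 0.0771 in siScrt1 (SD over 5 libraries), with a two-sided p of 0.0556 in an exact permutation test. The index includes Ifih1, which was raised in this contrast, and its genes were listed with earlier results of these data known. That permutation also ignored the pair numbers, so nothing is read from its p-value. Within groups, 0 of the 10 members followed the index past an adjusted p of 0.05 (exact permutation; 10 relations; adjusted p from 0.577 to 0.855 for Pearson's r), and 0 did so at an unadjusted p under 0.05. For Parp14, r was -0.46, rho -0.52 and r without the 2 libraries farthest from the index median -0.34 (exact permutation p = 0.222 for r and 0.167 for rho). For Parp9, r was 0.36, rho 0.32 and r without those libraries 0.55 (exact permutation p = 0.311 and 0.375). Over the differences within the 5 numbered pairs, r with the index was 0.21 for Parp14, where the sign turned, and 0.36 for Parp9. Each of these rests on 5 values and carries no test. With 10 libraries, a weak relation was not detectable.

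Sequence windows of the interferon-inducible members are shown for GAAANNGAA, the core of the element bound by interferon regulatory factors, a search added after the data were seen. It occurred in 9.71% of all promoter windows. Among the 9 genes with a window, Parp12 and Parp14 held it, 17 and 76 bases before the start, and Dtx3l held it 10 bases after the start. The 41 bases around each match lie at chr4:68850534-68850574 (minus strand), chr11:78408042-78408082 (plus strand) and chr11:78320219-78320259 (plus strand) of GRCr8, with the match in capitals, on the opposite strand in Parp12.
Parp12: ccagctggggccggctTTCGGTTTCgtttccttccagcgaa
Parp14: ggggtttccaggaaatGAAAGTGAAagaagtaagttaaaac
Dtx3l: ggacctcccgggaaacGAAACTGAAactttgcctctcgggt

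Of the PARP genes outside the 10, 7 records were tested and none passed the threshold in limma at an adjusted or unadjusted p of 0.05, while 11.1% of all tested genes had an unadjusted p under 0.05. Tiparp, a target of the aryl hydrocarbon receptor, had 223 ± 40.9 scaled counts in siCtrl against 178 ± 43.0 in siScrt1 (SD over 5 libraries), and its log2 fold change was -0.35 (SE 0.171). The tankyrase Tnks, which marks axin for degradation, had 0.02 (SE 0.0649), a sign that turned with scaling to the library total (-0.018). Zc3hav1, the antiviral protein that lacks catalytic activity, had -0.05 (SE 0.0626), and Parp11, a nuclear envelope member, had -0.07 (SE 0.0966). Tnks2 is present under 2 Ensembl records. The main one had 1846 ± 135 and 1733 ± 153 scaled counts (log2 fold change -0.09, SE 0.0740). The second, ENSRNOG00000059776, ran from 0 to 57.7 in siCtrl and from 0.0880 to 63.6 in siScrt1, with a log2 fold change of 2.00 (SE 1.59) that was 0.34 with log2(TPM + 1) and 1.15 to 3.28 when 1 library was left out. Whether it shares reads with the main record was not tested, and its value is uncertain. Parp4 was not analysed here.

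Enzymes that remove or read ADP-ribose were counted next. Of 16 tested genes none passed the threshold in limma at an adjusted or unadjusted p of 0.05, and 11 were positive, with a median of 0.02. Parg, which degrades the chains, had a log2 fold change of 0.05 (SE 0.0794), the mono-ADP-ribose hydrolase Macrod1 0.21 (SE 0.116) and Dtx3l 0.24 (SE 0.190). Of 28 genes of single-strand break and base excision repair none passed either, 1, the thymine glycosylase Tdg (-0.20, SE 0.0676), had an unadjusted p under 0.05, a smaller share than the 11.1% of all tested genes, and the median was -0.05. Xrcc1, the scaffold that Parp1 recruits, had 0.12 (SE 0.0839), and its ligase partner Lig3 -0.11 (SE 0.0778).

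Of 22 genes that make or use NAD, the substrate of all PARP enzymes, Nadk2 was lowered and none was raised. Of all tested genes, 0.680% were lowered. In limma 3 had an unadjusted p under 0.05, beside 11.1% of all tested genes. These were Nadk2, Nmrk1 (-0.34, SE 0.117) and Sarm1 (0.23, SE 0.102). Nadk2, the mitochondrial NAD kinase, fell from 257 ± 20.7 to 161 ± 12.4 scaled counts (SD over 5 libraries), or by -0.67 in log2 fold change (SE 0.0890; adjusted p = 0.00385 in limma). It stayed past the threshold without both number 4 libraries (-0.66, adjusted p = 0.0449). Nampt, the rate-limiting enzyme of NAD salvage, had 0.02 (SE 0.0959) with a sign that turned with library-total scaling (-0.016), and Nmnat1, the nuclear NAD synthase, 0.18 (SE 0.110). The median of the 22 genes was -0.0038.

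Of 28 genes of the unfolded protein response, none passed the threshold in limma and 2, Sel1l and the sensor Atf6 (-0.17, SE 0.0593), had an unadjusted p under 0.05, again a smaller share than the 11.1% of all tested genes. The targets of Parp16 were among them. Ern1, the sensor IRE1, had 3673 ± 410.0 scaled counts in siCtrl and 3323 ± 386 in siScrt1 (log2 fold change -0.14, SE 0.0930), and Eif2ak3, the sensor PERK, 1381 ± 181 and 1225 ± 70.9 (-0.16, SE 0.0858; SD, n = 5 each). The chaperone Hspa5 had -0.09 (SE 0.134). The median of the 28 genes was -0.03, and 10 were positive. With the pair number as a block, Sel1l, an adaptor of endoplasmic reticulum-associated degradation, was past the threshold (-0.28, SE 0.0544; limma, adjusted p = 0.0330).

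Of 37 interferon-response genes, Ifih1 was raised and none was lowered. Of all tested genes, 0.371% were raised and 0.680% lowered. In limma 2, Ifih1 and Irf1 (0.27, SE 0.0674), had an unadjusted p under 0.05, beside 11.1% of all tested genes. Ifih1, the sensor of long double-stranded RNA, rose from 110 ± 22.8 to 234 ± 40.0 scaled counts (SD over 5 libraries), or by 1.09 in log2 fold change (SE 0.156; adjusted p = 0.00528 in limma). Without both number 4 libraries it was 0.99 with an adjusted p of 0.0584. The median of the 37 genes was 0.08 and 26 were positive, beside a median of 0.0035 over all tested genes. With the pair number as a block, the chemokine Cxcl10 was past the threshold as well (0.42, SE 0.0844; limma, adjusted p = 0.0351). Summed immune cell markers ran from 44.2 to 92.7 scaled counts in siCtrl and from 50.3 to 86.7 in siScrt1 for the 8 of 9 markers in the table, with Cd3e at 0 in all libraries, and their part in these values was not tested.

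**Figure D5:**
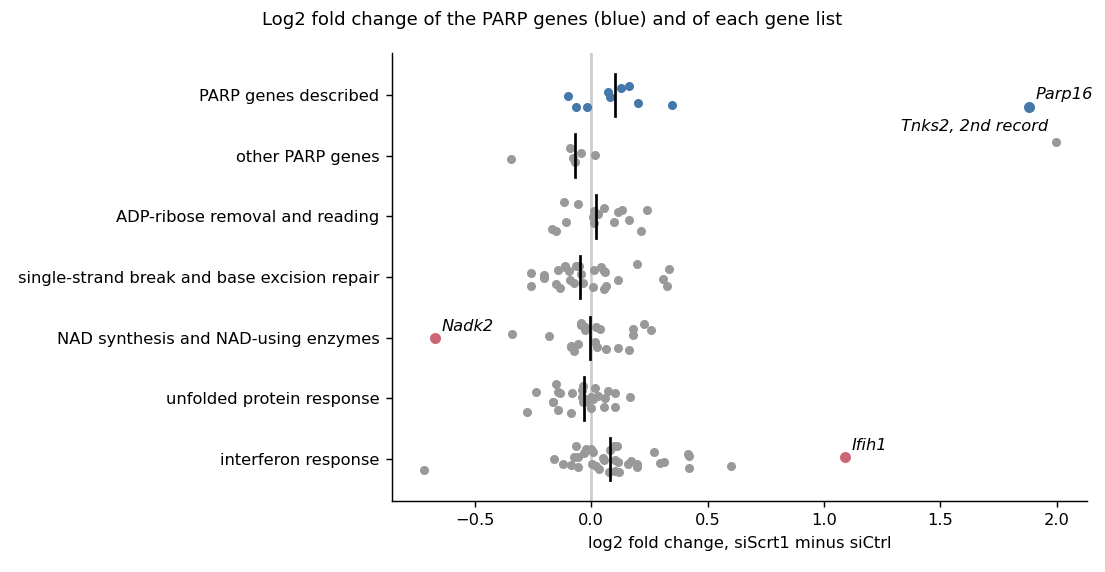
Log2 fold change of the 10 PARP genes (blue, a description) and of each tested gene of the 6 other lists (grey, or red where the adjusted p is under 0.05), with the median of each list as a black line. Nadk2 at -0.67 and Ifih1 at 1.09 are the red points among 138 genes, and the second record of Tnks2 lies at 2.00 with an SE of 1.59. Of all tested genes, 1.05% were past that threshold.

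The 5 genes whose log2 values followed Parp16 most closely over the 10 libraries, among 12879 compared, were Cd1d1, Osbpl5, Slc6a9, Mov10 and LOC100912373, with Pearson's r of 0.98, 0.96, 0.96, 0.96 and 0.96. Since Parp16 differs between the groups, a gene that differs the same way scores high on this measure. Cd1d1, which presents lipid antigens, had 178 ± 9.66 scaled counts in siCtrl and 328 ± 25.3 in siScrt1. Mov10, an RNA helicase, had 98.2 ± 6.17 and 233 ± 32.4 (SD, n = 5 each). The log2 fold changes of the 5 genes ran from 0.28 for Slc6a9, a glycine transporter, to 1.23 for Mov10.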

How the data were processed

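RNA-seq libraries of FACS-sorted rat β-cells, 5 siCtrl and 5 siScrt1, were analysed from a single deposited file. The authors quantified transcripts of the Rnor6 annotation with kallisto and scaled the values between libraries with sleuth. FastQC and Trimmomatic are also named in the submitters' processing notes, and versions were not given in the sources used here. The deposited signal per transcript is a scaled estimated count and a scaled TPM, and a further 9363 annotation rows carried no value. All columns of per-sample values were assigned (0 left unused).

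Low scaled counts in a library were whole multiples of a step of 0.842 to 1.26, and division by it gave recovered reads, with library totals within 0.00673 of a whole number. Between 76.0% and 76.7% of gene values came out whole (tolerance 0.01 reads). limma-voom on these reads called 137 genes. Scaled counts were summed per gene, transformed to log2(value + 0.5) and compared between the groups with limma 3.58.1 (trended eBayes, no covariates) in R 4.3.3. Fold changes refer to this transform and are understated for low genes. Genes needed the CPM of 10 reads in a median library in at least 5 libraries and 15 reads in total. Benjamini-Hochberg adjusted p-values cover all 12941 genes tested, with a threshold of 0.05, and 136 genes were past it (48 raised, 88 lowered). TPM sums ran from 821278 to 1153952 and thus differed between libraries. Single values were compared with exact permutation tests (scipy 1.17.1, numpy 2.4.6, pandas 2.3.3, Python 3.11.15), of which the smallest p-value for 5 against 5 is 0.00794. Plots used matplotlib 3.10.9 and tables data.table (version 1.17.8).

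The table numbers the libraries of each group 1 to 5 (A to E being 1 to 5 in siScrt1). Deviations of same-numbered libraries correlated at 0.35, 0.13, 0.23, 0.20 and 0.23, against at most 0.17 for other pairs, so the numbers were taken as pairs and a fit with the number as a block was an alternative. The members and gene lists were chosen with earlier results of these data known. Genes named are the 10 members, Scrt1, the 5 genes most correlated with Parp16 (at least 10 reads on average), list genes past the threshold and a set of named partners. Genes named for the promoter core, the replicate block or an unadjusted p were added after their values were seen. Alternatives were TPM, other pseudocounts, filters and scalings, limma-voom, the replicate block, and leaving out libraries. Intervals cover counting error only. Promoter sequences are those of RefSeq for GRCr8, matched by symbol.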

Additional observations from a re-analysis of the deposited data

Results flagged for a closer look

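In 5 of 82 groups of 5 libraries, 1 library lay so far from the other 4 that its gap exceeded the 95% critical value of Dixon's test. Chance gives about 1 in 20, or 4 such groups. Parp6 had 850.7 scaled counts in siScrt1 replicate A, against 946 to 979.5 in the other 4 libraries. Macrod1 had 113 in siCtrl replicate 2, whereas the highest of that group had 160.2. Cd1d1 had 161 in siCtrl replicate 4, against 178.7 to 185.2. Summed mesenchymal markers were 230.9 in siCtrl replicate 4, against 53.22 to 91.42, and 421.1 in siScrt1 replicate D, against 69.56 to 127.1.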

How the results depend on the processing

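With the replicate block 259 genes were past the threshold in place of 136, 2 PARP members in place of 1 (Parp14 added) and 4 list genes in place of 2 (Sel1l and Cxcl10 added), and no further named gene changed its call with the block. With a filter of 30 reads 0 PARP members were past it, because Parp16 was not tested. Leaving out 1 library gave 62 to 133 genes, a Scrt1 log2 fold change of -2.261 to -1.799, 1 PARP member and 2 to 4 genes raised among the 17 with the promoter core. Without both number 4 libraries, an alternative chosen after seeing the data, 25 genes were past the threshold, with 1 list gene (Nadk2), 1 gene with the promoter core (Parp16) and Scrt1 at -1.817 (adjusted p = 0.0598). The log2 fold change of Parp16 was 0.96 with log2(TPM + 1) and 1.48 with a pseudocount of 5. Signs turned for Parp1 (0.0143 without siScrt1 replicate B), Tnks (-0.018 with library-total scaling, -0.01717 and -0.01244 when siCtrl replicate 3 or siScrt1 replicate E was left out, in a range up to 0.04531) and Nampt (-0.016 with library-total scaling, -0.03546 to -0.0157 when siCtrl replicate 3, siCtrl replicate 4, siScrt1 replicate A or both number 4 libraries were left out, in a range up to 0.06793). The order of the members by level had 8 to 10 of 10 ranks the same. Members paired with the index by number gave 5 values and no test. The cause of these changes was not tested. Depth limits Parp16, at 6 to 51 reads per library.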
